A study of Mus musculus with 10 samples.

Results

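The carboxylesterase family was followed in mouse liver through 10 named genes, Ces1b, Ces1c, Ces1d, Ces1e, Ces1f, Ces1g, Ces2a, Ces2e, Ces3a and Ces3b. They were taken by symbol, each mapped to 1 Ensembl gene, out of 55401 genes in the count files, which list 20 carboxylesterase genes in all. Liver RNA was sequenced from 5 wild-type (WT) and 5 liver-specific Thrb knockout (Thrb hep-/-) samples. The sample titles give the strain as C57Bl6/J for both genotypes, and the WT mice were littermates of the knockouts. Thrb encodes thyroid hormone receptor beta, the main thyroid hormone receptor of liver. The Thrb hep-/- mice came from a cross of Thrb-loxP/loxP mice with Afp-Cre mice, in which the alpha-fetoprotein promoter drives the Cre recombinase. That promoter is active in the fetal precursors of hepatocytes and of bile duct cells, and so marks a wider lineage than adult hepatocytes. Neither genotype was treated, and the labels of these samples give unrestricted chow, a light cycle of 12 h and 22–24°C as housing. The age and sex of these mice were not given in the sources used here. The labels do not state that each sample was a separate animal, so p-values measure the spread between these samples, which may be technical. Each library held 26477195 to 28590704 counts over genes. Thrb itself was present at 32.5 to 34.2 normalized CPM (counts scaled to a common library size, with factors from the trimmed mean of M-values) in WT and at 24.9 to 28.8 in Thrb hep-/- livers, without overlap (log2 fold change -0.32, SE 0.067, adjusted p = 0.036 by edgeR's quasi-likelihood test, Benjamini-Hochberg adjusted over all genes tested). Counts over the whole gene include exons outside any deleted part. Of 8 hepatocyte markers, which include Alb and Ttr, 8 were measured and 0 differed by that test at an adjusted p of 0.15, the threshold of the study.

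Carboxylesterases are serine hydrolases that cut ester, amide and thioester bonds. In mouse liver most of them are held in the endoplasmic reticulum, where they clear ester drugs and toxicants and take part in the turnover of stored triglyceride and cholesteryl esters. Ces1c differs in being secreted and is the main carboxylesterase of mouse plasma. Ces1d is also known as triacylglycerol hydrolase, Ces1g is known for its part in hepatic lipid handling, and Ces1e is egasyn, the protein that holds beta-glucuronidase in the endoplasmic reticulum. The members lie on chromosome 8 in separate Ces1 and Ces2–Ces3 clusters and arose by gene duplication, so their messages are alike. A window of the coding sequence around the codon of the catalytic serine is given to show how far the members differ in the stretch that makes them esterases. It was read 5′ to 3′ from the GENCODE M21 transcripts on GRCm38, spans 60 bases with the serine codon at bases 25 to 27, and joins exons 5 and 6 in the Ces1 and Ces3 genes while lying within exon 5 in Ces2a and Ces2e. Capitals mark bases that differ from Ces1e, the member with the largest fitted fold change.
Ces1e: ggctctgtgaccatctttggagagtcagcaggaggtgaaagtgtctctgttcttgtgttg
Ces1d: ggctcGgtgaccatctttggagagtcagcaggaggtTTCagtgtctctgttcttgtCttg
Ces1f: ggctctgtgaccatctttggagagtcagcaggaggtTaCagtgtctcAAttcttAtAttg
Ces1g: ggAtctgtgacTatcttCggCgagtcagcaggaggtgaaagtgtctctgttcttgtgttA
Ces1c: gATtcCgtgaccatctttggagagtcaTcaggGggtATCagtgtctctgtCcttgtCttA
Ces1b: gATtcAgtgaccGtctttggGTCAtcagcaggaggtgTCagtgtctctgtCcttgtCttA
Ces2a: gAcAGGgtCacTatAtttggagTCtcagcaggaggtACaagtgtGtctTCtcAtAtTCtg
Ces2e: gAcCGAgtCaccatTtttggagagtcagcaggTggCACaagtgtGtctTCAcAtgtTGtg
Ces3a: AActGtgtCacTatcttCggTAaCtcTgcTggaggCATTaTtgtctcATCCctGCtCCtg
Ces3b: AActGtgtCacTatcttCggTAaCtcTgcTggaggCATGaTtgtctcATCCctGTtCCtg

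In this window Ces1d and Ces1g differed from Ces1e at 5 bases each and Ces1f at 6, while Ces1c differed at 11 and Ces1b at 13. Ces2a and Ces2e differed from it at 18 and 17 bases, and Ces3a and Ces3b at 24 each. Over the whole coding sequence the closest pair was Ces3a and Ces3b at 95.3% identity, followed by Ces1b and Ces1c at 90.9%. The 15 pairs within Ces1 ran from 73.1 to 90.9%, and the 28 pairs between Ces1, Ces2 and Ces3 from 61.3 to 63.7%. Reads that match several genes were not counted by the authors, so identity bears on how well each count stands for its gene. Of all stretches of 100 bases in their longest coding transcripts, 0 in Ces1d, Ces1e, Ces1f, Ces1g and Ces2e recurred in a transcript of another gene. Ces2a shared 10.7% of its 100-base stretches with the pseudogene Gm7208, Ces3a shared 9.09% with Ces3b, and Ces1c shared 1.39% with Ces1b. Gm7208 itself held between 1 and 13 counts in every library. At 50 bases the shared part was 1.28% for Ces1d, 3.21% for Ces1e and 1.60% for Ces1f, against 30.9% for Ces3a, 26.1% for Ces3b, 22.2% for Ces2a, 17.0% for Ces1c and 11.6% for Ces1b. Values of Ces3a, Ces3b, Ces2a, Ces1c and Ces1b are therefore less certain than those of Ces1d, Ces1e and Ces1f where near copies share reads.

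In Thrb hep-/- livers 3 of the 10 members rose and 0 fell at an adjusted p of 0.15 (edgeR's quasi-likelihood test, Benjamini-Hochberg adjusted over 12234 genes). They were Ces1e, Ces1f and Ces1d, with fold differences of 2.01, 1.51 and 1.91 in mean normalized CPM. The share of all tested genes that rose by the same rule was 1.51%, and 2.57% fell. The fit put 7 members higher and 3 lower, and the median log2 fold change over the 10 was 0.40, against 0.00054 over all genes tested. At an adjusted p of 0.05, 2 members passed, Ces1e and Ces1f, where 0.319% of all genes tested rose. In 3 of 10 members, the same ones, every Thrb hep-/- library lay above every WT library, a pattern that 1.38% of all genes tested showed in this direction. RNA from whole liver was measured, so a change in the number of cells of a type and a change in RNA per cell cannot be told apart.

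**Figure D1:**
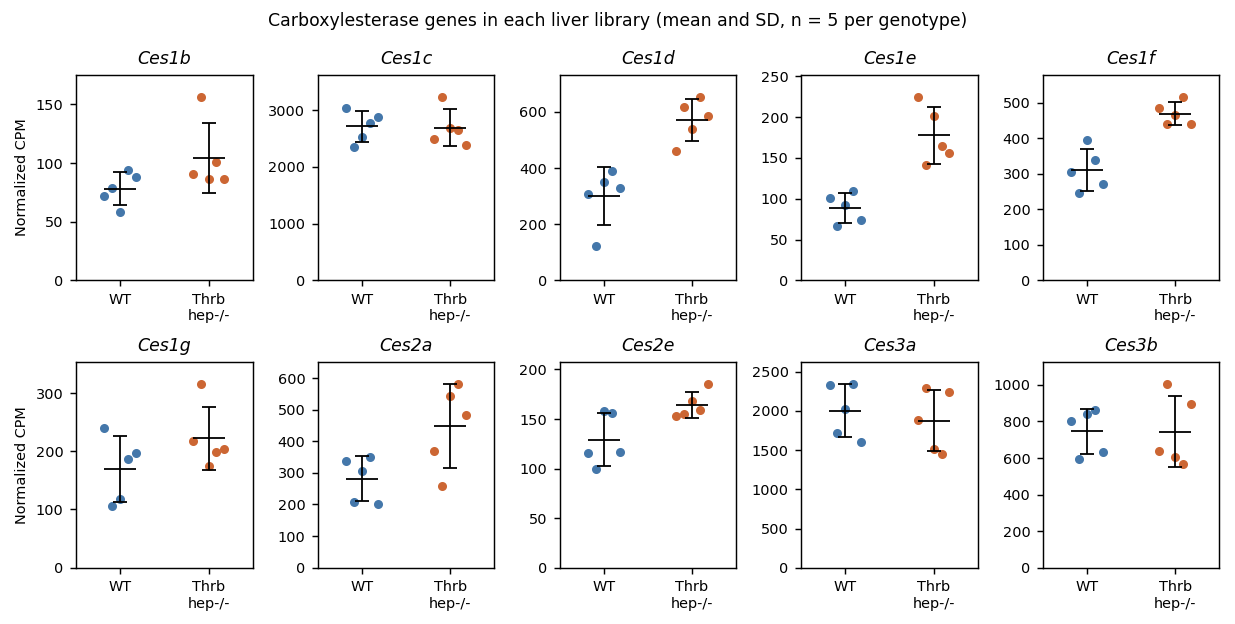
Normalized CPM of each of the 10 carboxylesterase genes, with 1 point per library, a horizontal line at the mean and bars of 1 SD (n = 5 per genotype); each vertical axis starts at 0 and has its own scale. The WT and Thrb hep-/- points do not overlap for Ces1d, Ces1e and Ces1f, and overlap for the other 7 genes.

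Ces1e, egasyn, stood at 101, 66.5, 92.0, 109 and 73.3 normalized CPM in WT replicates 1 to 5 and at 225, 141, 202, 165 and 155 in Thrb hep-/- replicates 1 to 5. Every knockout library was above every WT library, with a gap from 109 to 141 between them. The mean went from 88.4 ± 18.1 to 178 ± 34.7 (SD, n = 5 each), a log2 fold change of 1.01 (SE 0.16, 95% interval 0.66 to 1.35, adjusted p = 0.0098 in edgeR's quasi-likelihood test). The exact permutation test of the log2 values gave p = 0.0079, two-sided and unadjusted for the 10 members compared, the smallest that 5 against 5 libraries allow. Behind these values were 1903 to 2789 counts per WT library and 3767 to 6478 per knockout library. The call held at 0.15 without any 1 of the 10 libraries, with log2 fold changes of 0.91 to 1.09, and was lost with a component of the acute-phase genes as covariate (0.43, adjusted p = 0.9998 in edgeR's test). Gusb, the gene of the beta-glucuronidase that egasyn binds, was at 34.4 to 44.1 normalized CPM in WT and 28.6 to 41.4 in Thrb hep-/- livers and did not pass (log2 fold change -0.15, SE 0.11, adjusted p = 0.60 in edgeR's test). The genotypes overlapped for Gusb, and its fitted direction was opposite to that of Ces1e.

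Ces1f, a microsomal lipid hydrolase related to Ces1d, stood at 304, 245, 394, 340 and 273 normalized CPM in WT and at 485, 439, 467, 518 and 440 in Thrb hep-/- livers. The highest WT library, replicate 3, lay below the lowest knockout library, replicate 2, without overlap. The mean went from 311 ± 58.5 to 470 ± 33.0, a log2 fold change of 0.59 (SE 0.12, 95% interval 0.33 to 0.86, adjusted p = 0.035 in edgeR's test, exact permutation p = 0.0079, two-sided). The coefficient of variation was 18.8% among WT and 7.03% among Thrb hep-/- libraries, the smallest spread of any member within the knockouts. Its log2 fold change was 0.52 to 0.69 when any 1 library was left out, and past 0.15 each time. The call was lost with the acute-phase component as covariate (0.084, adjusted p = 0.9998 in edgeR's test) and without WT replicates 2 and 5 (0.44, adjusted p = 0.24).

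Ces1d, triacylglycerol hydrolase, stood at 307, 123, 349, 391 and 329 normalized CPM in WT and at 461, 617, 541, 655 and 586 in Thrb hep-/- livers. WT replicate 2 was far below the other WT libraries, and the genotypes did not overlap. The mean went from 300 ± 103 to 572 ± 74.8, a log2 fold change of 0.93 (SE 0.25, 95% interval 0.39 to 1.48, adjusted p = 0.10 in edgeR's test, exact permutation p = 0.0079, two-sided). Without WT replicate 2 the log2 fold change was 0.74 and the adjusted p 0.019 in edgeR's test. The call was the least firm of the 3: it was lost without WT replicate 1 or 5 or without Thrb hep-/- replicate 2, 3, 4 or 5, with adjusted p from 0.16 to 0.20 in those fits, and with the acute-phase component (0.26, adjusted p = 0.9998 in edgeR's test).

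The members that did not pass fell into those fitted higher and those fitted near 0. Ces2a, known for hydrolysis of acylglycerols and ester drugs in liver and intestine, stood at 338, 209, 307, 352 and 201 normalized CPM in WT and at 370, 259, 544, 582 and 483 in Thrb hep-/- livers. Only knockout replicate 2 fell inside the WT range, and the log2 fold change was 0.67 (SE 0.23, 95% interval 0.16 to 1.18, adjusted p = 0.22 in edgeR's test). Ces2e stood at 116, 99.1, 158, 156 and 116 in WT and at 153, 155, 168, 159 and 185 in Thrb hep-/- livers, with a log2 fold change of 0.35 (SE 0.13, adjusted p = 0.25 in edgeR's test). DESeq2 put both past 0.15 (adjusted p = 0.064 and 0.148), and so did limma-voom with quality weights (adjusted p = 0.080 and 0.14). Ces1b stood at 72.1, 78.8, 58.4, 94.0 and 87.9 in WT and at 90.3, 157, 86.5, 101 and 86.9 in Thrb hep-/- livers, with knockout replicate 2 above all others (log2 fold change 0.42, SE 0.18, adjusted p = 0.34 in edgeR's test). Ces1g ranged from 105 to 240 in WT and from 175 to 316 in Thrb hep-/- livers (log2 fold change 0.39, 95% interval -0.12 to 0.90, adjusted p = 0.51 in edgeR's test). For Ces2a, Ces2e and Ces1b the unadjusted interval lay above 0, and with the 3 called genes they made up the 6 members with an unadjusted p below 0.05, all higher, as were 6.15% of all genes tested.

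The most abundant members showed no difference that passed. Ces1c, the plasma carboxylesterase, stood at 3031, 2346, 2534, 2779 and 2875 normalized CPM in WT and at 2497, 3240, 2684, 2655 and 2390 in Thrb hep-/- livers. Its log2 fold change was -0.011 with a 95% interval of -0.26 to 0.24 (adjusted p = 0.98 in edgeR's test). Ces3a and Ces3b, esterases abundant in liver, gave intervals of -0.45 to 0.26 and -0.38 to 0.37 around -0.096 and -0.0046. The intervals of Ces1c and Ces3b do not reach the fitted values of Ces1e, Ces1d or Ces1f, and neither does that of Ces3a. The interval of Ces3b does overlap the interval of Ces1f, which begins at 0.33. Differences between members were not tested. The levels of Ces3a were 1603 to 2346 in WT and 1453 to 2293 in Thrb hep-/- livers, and those of Ces3b 595 to 860 and 569 to 1006.

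Called members were also set against uncalled ones within each library, by the log2 ratio of 2 members, in 6 pairs. The pairs were chosen after the values were seen, so the ratios restate the members' own differences and carry no test. Against Ces1c, the log2 ratio of Ces1d was higher by 1.04 in Thrb hep-/- livers, that of Ces1e by 1.02 and that of Ces1f by 0.62. Against Ces1g, which lies next to Ces1f, the differences were 0.60, 0.58 and 0.18. The ratio of each of the 3 genes to Ces1g overlapped between genotypes, and so did that of Ces1f to Ces1c.

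The order of the genes along chromosome 8 set the 3 called genes side by side. In the GRCm38 annotation the Ces1 cluster lies on the minus strand, in the order Ces1a to Ces1h by position. Ces1d (chr8:93166068-93197838), Ces1e (chr8:93201218-93229619) and Ces1f (chr8:93256236-93279747) follow each other, with 3379 bp between Ces1d and Ces1e and 26616 bp between Ces1e and Ces1f. Ces1c ends 34784 bp before Ces1d on one side, and Ces1g begins 22621 bp after Ces1f on the other. The Ces2, Ces3 and Ces4a genes lie on the plus strand 11198172 bp beyond Ces5a. No other carboxylesterase gene stands between the 3. The pseudogene Gm45727 between Ces1e and Ces1f was at 2.46 and 3.58 normalized CPM in WT and Thrb hep-/- livers (log2 fold change 0.54, adjusted p = 0.46 in edgeR's test).

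**Figure D2:**
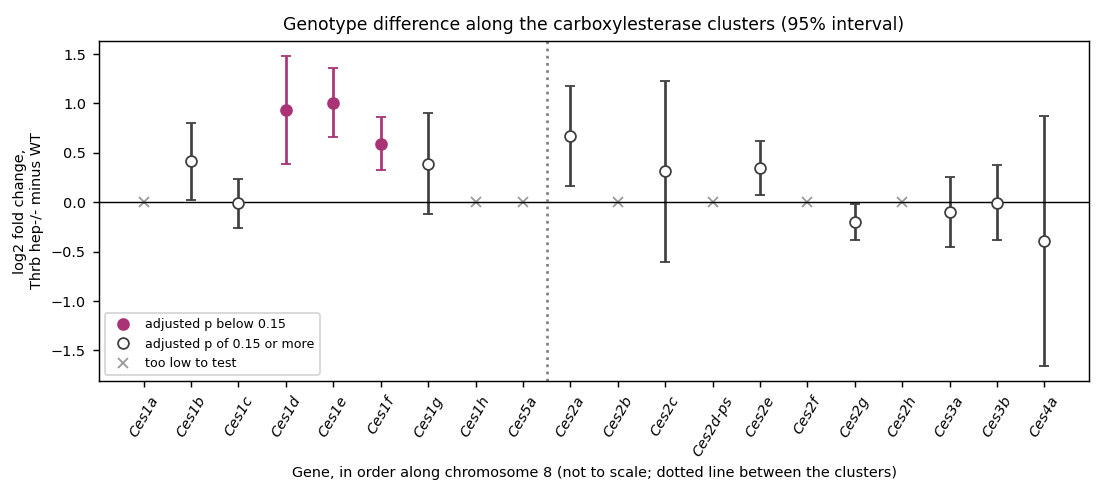
Fitted log2 fold change (Thrb hep-/- minus WT, n = 5 each) of the carboxylesterase genes in their order along the chromosome, with 95% intervals; filled points passed an adjusted p of 0.15, open points did not, and crosses on the zero line are genes too low to test, with no value. The filled points are the neighbours Ces1d, Ces1e and Ces1f, between Ces1c at -0.011 and Ces1g at 0.39.

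Among tested genes that are no carboxylesterase and lie within 250 kb of a member, 2 of 21 rose and 0 fell, beside the 1.51% of all genes. One is Gm45909, an unclassified transcript inside the body of Ces1d on the same strand, at 1.20 and 2.02 normalized CPM (log2 fold change 0.75, adjusted p = 0.14 in edgeR's test). Its counts cannot be told apart from RNA of Ces1d introns here. The other is Pdp2, the catalytic subunit of a pyruvate dehydrogenase phosphatase, on the Ces2 side, at 43.4 ± 4.24 and 61.3 ± 9.47 normalized CPM (log2 fold change 0.50, adjusted p = 0.045 in edgeR's test). Pdp2 is not between the called genes.

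The region before the start of a gene was available in the RefSeq promoter table (GRCm38.p6) for 7 of the 10 members. Ces1d, Ces1f and Ces3a had no entry. The 250 bases before the start are printed for Ces1e, which rose, and for Ces1c, its cluster neighbour that did not pass. They are also printed for Ces2a, a member with a match to a half-site of nuclear receptors. Ces1e lies at chr8:93229620-93229869 and Ces1c at chr8:93131284-93131533, both on the minus strand, and Ces2a at chr8:104733753-104734002 on the plus strand. Capitals mark matches to the searched letters.
Ces1e: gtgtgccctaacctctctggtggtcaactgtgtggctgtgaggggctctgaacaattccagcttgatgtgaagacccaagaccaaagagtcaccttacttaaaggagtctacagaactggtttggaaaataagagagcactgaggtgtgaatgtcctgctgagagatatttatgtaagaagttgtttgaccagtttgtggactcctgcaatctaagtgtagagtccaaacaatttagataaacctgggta
Ces1c: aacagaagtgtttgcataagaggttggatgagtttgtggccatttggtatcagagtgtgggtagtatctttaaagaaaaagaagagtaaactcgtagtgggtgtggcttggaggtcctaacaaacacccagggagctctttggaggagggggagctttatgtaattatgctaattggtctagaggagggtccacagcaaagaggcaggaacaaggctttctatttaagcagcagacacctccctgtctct
Ces2a: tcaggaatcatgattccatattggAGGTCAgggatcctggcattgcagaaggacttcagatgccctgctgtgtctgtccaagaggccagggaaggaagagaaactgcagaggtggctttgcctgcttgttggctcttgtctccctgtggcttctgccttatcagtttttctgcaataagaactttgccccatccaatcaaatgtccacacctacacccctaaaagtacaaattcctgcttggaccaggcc

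The search took AGGTCA and AGTTCA, half-sites that thyroid hormone receptor and related receptors can bind, on both strands, and direct repeats of AGGTCA or of AGNTCA with a gap of 4 bases, which overlap with the half-sites. The window of Ces1e held none of them, and neither did those of Ces1c, Ces1g, Ces2e and Ces3b. Ces2a held 1 match to AGGTCA, which starts 226 bases before the start, and Ces1b held 1 match to AGTTCA. Of 32817 promoter windows of the same length, 14.0% held AGGTCA, 11.9% held AGTTCA, and 0.0152% and 0.104% held the repeats of AGGTCA and AGNTCA. These matches describe letters in this window only.

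Levels were compared between genes per kb of annotated exon, with all exons of a gene joined, on the normalized CPM scale. That length was 3285 bases for Ces1f and 2369 for Ces1d, although their coding sequences were 1686 and 1698 bases. The order of genes close in level may therefore depend on the length used. In WT livers Ces1c led at 1168 ± 118 CPM per kb, followed by Ces3a at 763 ± 130 and Ces3b at 291 ± 48.1 (SD, n = 5). The ranges of these 3 and of the next gene did not overlap from one to the next. Below them, Ces1d at 127 ± 43.6, Ces2a at 119 ± 30.3, Ces1f at 94.8 ± 17.8 and Ces1g at 71.0 ± 23.6 followed, each overlapping the gene beside it. Ces2e at 47.8 ± 9.82, Ces1e at 40.4 ± 8.25 and Ces1b at 39.8 ± 7.07 were the lowest members and overlapped each other. In Thrb hep-/- livers Ces1d reached 241 ± 31.6 per kb beside Ces3b at 290 ± 75.7, and Ces1e reached 81.1 ± 15.8 against 53.1 ± 15.2 for Ces1b and 60.8 ± 4.92 for Ces2e.

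**Figure D3:**
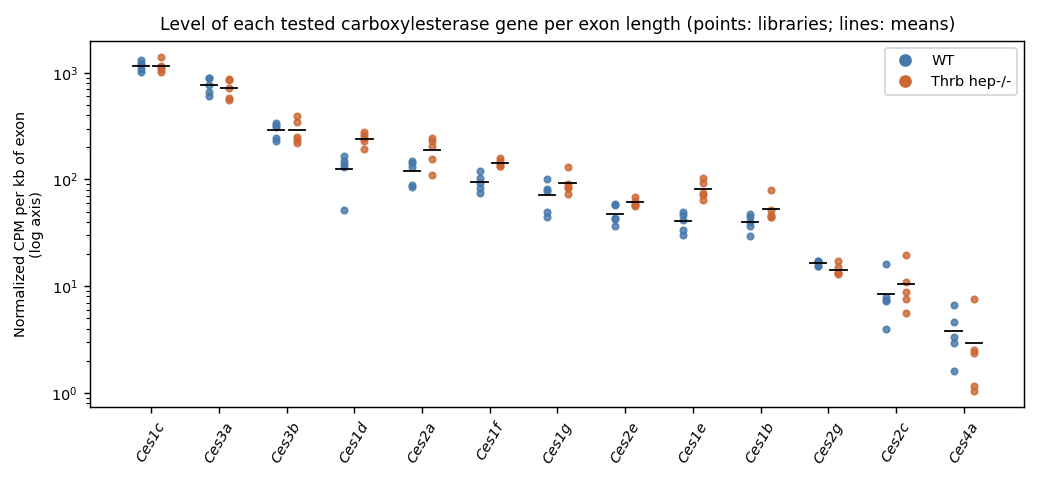
Normalized CPM per kb of exon (log axis) for the 13 carboxylesterase genes that were tested, ordered by their WT mean; points are libraries and lines are means (n = 5 per genotype). Ces1c, Ces3a and Ces3b lead in both genotypes, and the 3 genes outside the 10 members, Ces2g, Ces2c and Ces4a, are the lowest.

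The summed level of the 10 members was 6821 ± 869 normalized CPM in WT and 7470 ± 703 in Thrb hep-/- livers, with ranges of 5586 to 7642 and 6983 to 8624 that overlap. The sum of Ces1d, Ces1e and Ces1f was 434.9 to 839.9 in WT and 1171 to 1337 in Thrb hep-/- livers. These 3 made up 10.2% ± 1.67 of the sum of the 10 in WT and 16.4% ± 1.91 in Thrb hep-/- livers, while Ces1c, Ces3a and Ces3b went from 80.2% ± 1.99 to 70.9% ± 3.60. The 3 called genes were chosen by the same values, so these shares are a description and carry no test.

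The 10 other carboxylesterase genes were low. Of these, 3 passed the filter of 1 CPM in 5 libraries, and 0 of them passed the test. Ces2g stood at 55.1 to 61.5 normalized CPM in WT and 46.2 to 60.8 in Thrb hep-/- livers (log2 fold change -0.20, adjusted p = 0.33 in edgeR's test). Ces2c ranged from 9.13 to 36.7 and from 12.7 to 45.0 (0.31, adjusted p = 0.81), and Ces4a from 3.93 to 16.2 and from 2.54 to 18.2 (-0.39, adjusted p = 0.83). Ces1a, Ces1h, Ces2b, Ces2d-ps, Ces2f, Ces2h and Ces5a did not pass the filter. Ces1h had 0 counts in every library, which allows up to 3 counts, or 0.0993 to 0.117 normalized CPM, as far as counting error goes. Ces2h held 31, 36, 20, 17 and 19 counts in WT and 14, 6, 6, 13 and 15 in Thrb hep-/- livers, lower in each knockout library than in any WT library. Tested without a filter over 27817 genes, its log2 fold change was -1.27 (SE 0.32, adjusted p = 0.047 in edgeR's test), a gene singled out after its values were seen.

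The libraries also differed in acute-phase genes, which encode plasma proteins that liver makes in inflammation. Of 18 such genes, 0 were higher and 13 lower in Thrb hep-/- livers at 0.15, beside 1.51% and 2.57% of all genes tested. Their median log2 fold change was -1.18. Their summed level was 37938 to 88081 normalized CPM in WT and 24953 to 41815 in Thrb hep-/- livers. Their mean log2 CPM was 10.02, 10.9, 9.15, 9.54 and 10.5 in WT replicates 1 to 5 and 8.48, 8.98, 7.85, 7.72 and 8.34 in Thrb hep-/- replicates 1 to 5. WT replicate 2, the highest, was the lowest WT library for 7 of the 10 members, Ces1d, Ces1e and Ces1f among them. Within WT, the order by Ces1f was the reverse of the order by acute-phase mean, while the orders by Ces1e and Ces1d were not, and neither was the order by Ces1f within Thrb hep-/- libraries. WT replicate 3 and Thrb hep-/- replicate 2 were nearest to each other across genotypes, at 9.15 and 8.98, and held 92.0 and 141 normalized CPM of Ces1e, 394 and 439 of Ces1f and 349 and 617 of Ces1d. With the first principal component of the 18 genes as a covariate, which correlated at -0.84 with genotype over the 10 libraries, the log2 fold changes of Ces1e, Ces1f and Ces1d were 0.43, 0.084 and 0.26 and 0 of 10 members passed, as against 7 genes of all tested. With WT replicates 2 and 5 left out, the libraries with the highest acute-phase means, 2 members passed at 0.15, Ces1e and Ces1d, and 0 at 0.05. In that fit, chosen after the data were seen, Ces1f gave a log2 fold change of 0.44 (adjusted p = 0.24 in edgeR's test). With a component this close to genotype, the acute-phase difference and the genotype cannot be told apart in these libraries.

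**Figure D4:**
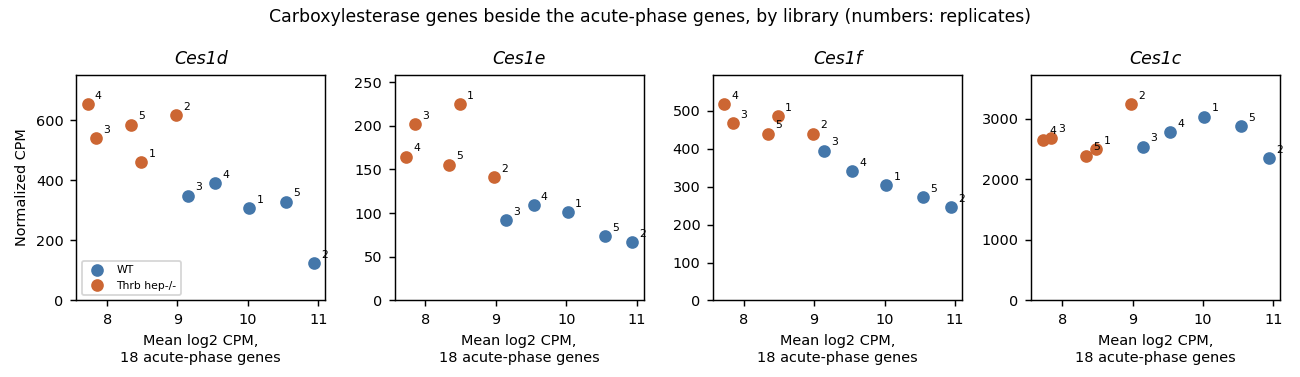
Normalized CPM of Ces1d, Ces1e, Ces1f and Ces1c against the mean log2 normalized CPM of 18 acute-phase genes, with 1 point per library, numbered by replicate. The Thrb hep-/- libraries lie to the left, from 7.72 to 8.98, and the WT libraries to the right, from 9.15 to 10.9; Ces1c shows no such division in height.

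Markers of other liver cells were read beside these values. Of the 6 tested markers of Kupffer cells and leukocytes, 1 passed and was lower, the neutrophil gene S100a8, at 0.664 to 6.01 normalized CPM in WT and 0.0993 to 1.08 in Thrb hep-/- livers. The 6 were all fitted lower, with a median log2 fold change of -0.72, and the summed level of the list was 81.2 to 275 and 91.8 to 194. Of 3 tested cholangiocyte, 5 endothelial and 5 stellate and fibroblast markers 0 passed. The 3 cholangiocyte markers were all fitted lower (median log2 fold change -0.42) and the 5 stellate and fibroblast markers all higher (0.23). Of the 5 endothelial markers, 2 were fitted higher and 3 lower. Of 8 pancreas and intestine markers 1, Fabp2, was high enough to test and did not pass. Of 8 male-biased liver genes, 1 rose, Mup20 (log2 fold change 0.97, adjusted p = 0.080 in edgeR's test), and of 8 female-biased genes 1 was high enough to test and did not pass. By the same rule 1.51% of all genes tested rose and 2.57% fell. The part of the marker and sex-biased genes in the carboxylesterase differences was not tested.

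Other hydrolases and genes of triglyceride turnover were read beside the carboxylesterases. Of 19 tested ester hydrolases outside the family, 2 rose and 0 fell, with a median log2 fold change of 0.16. They were Aadac, arylacetamide deacetylase, which hydrolyses drugs and lipid esters (0.48, adjusted p = 0.096), and Ephx2, soluble epoxide hydrolase (0.48, adjusted p = 0.12, edgeR's test). Of 18 genes of triglyceride hydrolysis and VLDL assembly, 3 rose and 0 fell, with a median of 0.24. Cidec, a lipid droplet protein, gave 1.51 (adjusted p = 0.065), Lipc, hepatic lipase, 0.41 (adjusted p = 0.077) and Pnpla2, adipose triglyceride lipase, 0.42 (adjusted p = 0.093). These counts stand beside 3 of 10 for the carboxylesterases, and the difference between the lists was not tested. Over all genes tested, 1.51% rose and 2.57% fell by the same rule, with a median log2 fold change of 0.00054.

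Receptors and factors that are known to govern carboxylesterase and drug-metabolism genes, such as Nr1i2 (PXR), Nr1i3 (CAR), Ppara and Hnf4a, were 0 of 10 past the threshold in either direction, with a median of 0.071. Of the 4414 annotated exon bases of Nr1i3, 3304 overlap Tomm40l. Reads that matched several genes were left out, so the count of Nr1i3 rests on part of the gene. Among 9 tested genes of the xenobiotic response, Cyp2c29 (0.77, adjusted p = 0.054) and Gstm1 (0.69, adjusted p = 0.13) rose and Cyp3a13 (-0.51, adjusted p = 0.048) fell in edgeR's test. Among 7 thyroid hormone responsive genes, Dio1, the deiodinase that serves as a standard readout of hepatic thyroid hormone action, fell (-3.03, adjusted p = 1.26e-05) and Me1, malic enzyme, rose (0.79, adjusted p = 0.065). Dio1 thus differed between genotypes in the opposite direction to the called carboxylesterases, and Me1 in the same direction. Beside these lists, the shares over all genes tested were 1.51% higher and 2.57% lower at 0.15.

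The pattern of each called member over the 10 libraries was matched to all tested genes outside the family by the root mean square difference of centred log2 CPM. The nearest to Ces1f was Ephx2 at 0.096, followed by Pex11a, a peroxisome proliferation factor, at 0.13 and Sgf29, a chromatin reader subunit, at 0.15. The nearest to Ces1e were Sparcl1 at 0.14, Paqr7 at 0.20 and Aldh3a2, fatty aldehyde dehydrogenase, at 0.21. Sparcl1 was low, at means of 1.88 and 3.46 normalized CPM in WT and Thrb hep-/- livers, near the filter of 1 CPM. Ces1d was matched less closely, by Txnip at 0.29, Cyp2c29 at 0.31 and Aldh3a2 at 0.34. The called members themselves differed from each other by 0.29 for Ces1e and Ces1f, 0.41 for Ces1d and Ces1f and 0.42 for Ces1d and Ces1e. Some uncalled members were as near or nearer. Ces2e lay 0.18 from Ces1f, and Ces2a lay 0.32 from Ces1f and 0.36 from Ces1e. For Ces1d the nearest members were the called Ces1f and Ces1e. The member nearest to Ces1e was the called Ces1f. Ces1e and Ces1f each had uncalled members nearer than the called Ces1d, while Ces1d had no uncalled member nearer than the called genes. The nearest genes are the smallest distances over all genes tested, so they are not comparable with distances between given members. All these patterns share the same 10 libraries and hold the genotype difference.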

How the data were processed

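The deposited files hold whole-number read counts per Ensembl gene, 1 file per liver sample. Per the study's methods and the submitters' processing notes, the authors aligned reads of a DNBSEQ stranded mRNA library to mm10/GRCm38 with HISAT2 2.2.1 and counted them with HTSeq 0.9.1 against Ensembl 102, without strand, at a minimum alignment quality of 10, leaving out reads that matched several genes. Overlapping genes on opposite strands are thus not separated. The deposited table of the authors' own comparison (edgeR 3.36.0) holds log2 fold changes, CPM and p-values and was not used.

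Genes below 1 CPM in more than 5 of the 10 libraries were dropped, and the rest were scaled by TMM and tested in edgeR 4.0.16 (R 4.3.3) with the robust quasi-likelihood F-test and Benjamini-Hochberg adjustment over the 12234 genes, at the study's threshold of 0.15 and at 0.05. Single genes were also compared by an exact two-sided permutation test of log2 CPM (prior count 2). The scripts were tested on simulated data. Symbols and positions came from GENCODE M21, another release on the same build, where 260 of 55401 IDs had none. Libraries of 26477195 to 28590704 counts set the precision, and intervals of 0 counts cover counting error only. DESeq2 1.42.0, limma 3.58.1 (voom with quality weights per library), other scalings and filters, a replicate block, an acute-phase covariate and leaving out libraries were tried. Members, lists and tests were chosen with earlier results of these data known. The text names all members, each context gene past 0.15 (at most 5 per list, and the acute-phase list as counts), the low carboxylesterase genes, neighbours past 0.15 and the 3 genes nearest in pattern to each called member; Ces2h and the gene ratios were singled out after their values were seen.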

Additional observations from a re-analysis of the deposited data

Results flagged for a closer look

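Within each genotype, the highest or lowest of 5 libraries was compared with the nearest other one. In 4 of 42 groups the gap was flagged as beyond Dixon's critical value of 0.71 of their range, where chance gives about 2.1. Ces2f and Ces5a, with 2 and 1 counts in 1 library and 0 in the rest, are not among the 4. Ces1b in Thrb hep-/- replicate 2 was at 157 normalized CPM, with the other knockout libraries at 86.5 to 101. The same library was the highest knockout library for 5 of the 10 members, Ces1b, Ces1c, Ces1g, Ces3a and Ces3b, and the lowest for Ces1e, Ces1f and Ces2a. Ces2b in Thrb hep-/- replicate 5 was at 42.7 normalized CPM from 1207 counts, with the others at 0.187 to 2.02. Ces4a in the same library was at 18.2, with the others at 2.54 to 6.15. Thrb hep-/- replicate 2 summed to 27779196 counts, with the other knockout libraries at 28441288 to 28590704.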

How the results depend on the processing

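The count of 3 members past 0.15 was 5 with DESeq2, 5 with limma-voom with quality weights and 2 without a filter on low counts. It was 0 with the acute-phase component, and ran from 2 to 4 without any 1 library. The 2 members past 0.05 became 0 with the component and 0 without WT replicates 2 and 5 (an alternative chosen after the data were seen), and 1 to 2 without any 1 library (1 without WT replicate 1 or 5 or Thrb hep-/- replicate 1, 3, 4 or 5). Over all genes, 499 passed 0.15 as reported, 885 in DESeq2, 880 in limma-voom, 7 with the component, 107 without those WT replicates and 227 to 673 without any 1 library (251 without WT replicate 2, 284 without WT replicate 5, 227 without Thrb hep-/- replicate 3). The labels number the samples 1 to 5 in both genotypes. Same-numbered libraries correlated at only -0.20 to 0.0091, which shows no pairing by number but cannot exclude one. With the replicate block 3 members passed, with Ces2a in (adjusted p = 0.14) and Ces1d out (adjusted p = 0.16), and 348 of all genes. Ces1e passed in 19 of 20 alternatives, Ces1f in 18 and Ces1d in 11. Without 1 library Ces2a passed in 1 case (Thrb hep-/- replicate 2) and Ces2e in 2 (WT replicate 3 or 4). Directions turned for Ces2a (-0.36), Ces2e (-0.12), Ces2c (-0.39) and Ces1c (0.037) with the component. Leaving out single libraries turned 3 genes whose values were not called: Ces1c (-0.080 to 0.035, turned without replicate 1 or 5 of either genotype), Ces3b (-0.13 to 0.078, turned without replicate 1, 3 or 4 of either genotype) and Ces2c (-0.038 to 0.67, turned without Thrb hep-/- replicate 5). The cause of these changes was not tested. The median log2 fold change of all genes was 0.00054 as reported, 0.0054 with RLE scaling and -0.0048 with upper-quartile scaling.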
